A study of Mus musculus with 7 samples.

Results

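Long non-coding RNAs are transcripts that carry no long open reading frame and act as RNA, as hosts of smaller RNAs, or through the act of their transcription. Muscle cells make several of these transcripts. Some are muscle restricted, like lnc-SMaRT and the lincMD1 locus, and others, like Malat1 and Neat1, are found in most cell types. The values of 8 of them are described here: lnc-SMaRT, Gm28653, Neat1, Malat1, Gas5, Snhg1, Mir22hg and Dnm3os. They were chosen by name, and each was found in 1 of the 11642 rows of the deposited expression table. All 8 passed the filter on low values that left 11086 rows for testing.

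The cells were C2C12, a mouse myoblast line that withdraws from the cell cycle and fuses into myotubes when serum is removed. All samples compared here were collected on day 2 of differentiation. Total RNA-Seq was performed on 2 samples treated with a scramble siRNA (si-SCR 1 and 2). It was also performed on 2 samples treated with siRNA #1 against lnc-SMaRT (si-SMaRT 1 and 2). The study's text speaks of 2 independent cell populations treated with these siRNAs. Whether same-numbered samples came from the same population is not stated. RNA captured with the set #1 probes, which target lnc-SMaRT, RNA from a LacZ control pull-down and the input gave 1 library each, so these have no replicate check. The RNA-Seq cells were a single line transfected with a single siRNA against the target. In these libraries, effects of that siRNA sequence therefore cannot be told apart from effects of depletion. Outside them, the study reported altered myogenesis and lower late muscle markers with this siRNA and with another. In bulk RNA of this kind, fewer cells of a type and less RNA per cell cannot be told apart.

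Levels are given as RPKM, that is, read number scaled to exon length and to library size. This allows levels of different genes to be set side by side only roughly. The length takes in the exons of all annotated isoforms, so RNAs spliced shorter than it read lower. The RPKM table covered between 10935425 and 14257761 recovered reads per sample, and these totals are lower limits. Myotube transcripts were abundant (the troponin gene Tnnc2 had 2643 and 2249 RPKM in si-SCR 1 and 2). Of 12 marker genes of other cell types, 10 were not in the table, and the highest si-SCR mean of the remaining pair was 1.66 RPKM. In the 4 samples there was a trend with base composition: across 10943 tested rows with a known GC content, the log2 difference between si-SMaRT 2 and si-SMaRT 1 fell with GC content (Spearman's rho -0.84, a description, since the points are genes that share the same libraries). The same correlation for si-SCR 2 against si-SCR 1 was 0.35. This trend touches most of the values below. In the study's mapping statistics, si-SMaRT 1 lost a far larger share of read pairs to the rRNA and tRNA filter than any other sample. Whether that loss bears on the trend was not tested. Values with the trend of each sample removed are given where they change the call of a list gene, or the direction of a member or of a list median. They come from a fit in which 477 of 10943 rows (4.36%) passed.

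The target of the depletion was described first. Lnc-SMaRT, annotated as Gm14635, is a lincRNA gene on the minus strand of the X chromosome (GRCm38, chrX:12339782-12354996), and in GENCODE M21 its longest transcript has 4 exons and 1409 bases. The siRNA site and the pull-down probes are shown because they fix which part of the RNA was attacked and which part was captured. The siRNA sense strand and a pair of the 6 set #1 probes, taken from the study's oligonucleotide list, are the following, written 5′ to 3′.
siRNA #1, sense strand: gagaagcagaacaaacagaua
Probe 4 of set #1: tgggtaaagtgcttgatgca
Probe 1 of set #1: tagctagctccagtgactag
The siRNA matched bases 878 to 898 of the transcript, in exon 4 (chrX:12340293-12340313). Probe 4 is complementary to bases 905 to 924 (chrX:12340267-12340286), just downstream of the siRNA site, and probe 1 to bases 2 to 21 in exon 1 (chrX:12354976-12354995). All 6 probes matched the transcript without a mismatch, 2 of them in exon 1, 1 in exon 3 and 3 in exon 4. In the exons of the other 7 long non-coding RNAs the longest run identical to the 21-base siRNA target was 8 or 9 bases.

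Lnc-SMaRT fell in the si-SMaRT samples. Its level was 19.1 RPKM in si-SCR 1 and 15.9 RPKM in si-SCR 2, against 2.88 RPKM in si-SMaRT 1 and 3.65 RPKM in si-SMaRT 2. Every si-SMaRT value lay far below every si-SCR value. The mean fell from 17.5 ± 2.26 RPKM to 3.27 ± 0.550 RPKM (SD, n = 2 per group), so 18.7% of the control level was left. Depending on which samples are paired, this share ran from 0.151 to 0.230 of the control value. On the log2(RPKM + 0.1) scale the difference was -2.39 (SE 0.28, 95% interval -2.97 to -1.80, adjusted p = 0.000882, limma with Benjamini-Hochberg adjustment over all tested rows). The values rest on at least 438, 407, 59 and 95 reads in the same sample order, and the exact 95% Poisson interval of the si-SMaRT 1 value was 2.19 to 3.71 RPKM. These intervals cover counting error only. The 2 si-SMaRT samples thus did not differ beyond their counting intervals for this gene, since that of si-SMaRT 2 was 2.96 to 4.47 RPKM.

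Lnc-SMaRT was the only member called in this fit, in which 56 of 11086 tested rows (0.505%) passed an adjusted p of 0.05 in either direction and 36 (0.325%) were lower in si-SMaRT. Among 256 tested rows of long non-coding genes, 2 passed, both lower in si-SMaRT. The other was Gm38534, a lincRNA named here after its values were seen. It had 4.03 and 4.07 RPKM in the si-SCR samples and 1.64 and 1.17 RPKM in the si-SMaRT samples, a log2 difference of -1.48 (SE 0.30, adjusted p = 0.0375). Lnc-SMaRT was also the only one of the 8 whose groups did not overlap, a pattern held by 40.7% of all tested rows.

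**Figure D1:**
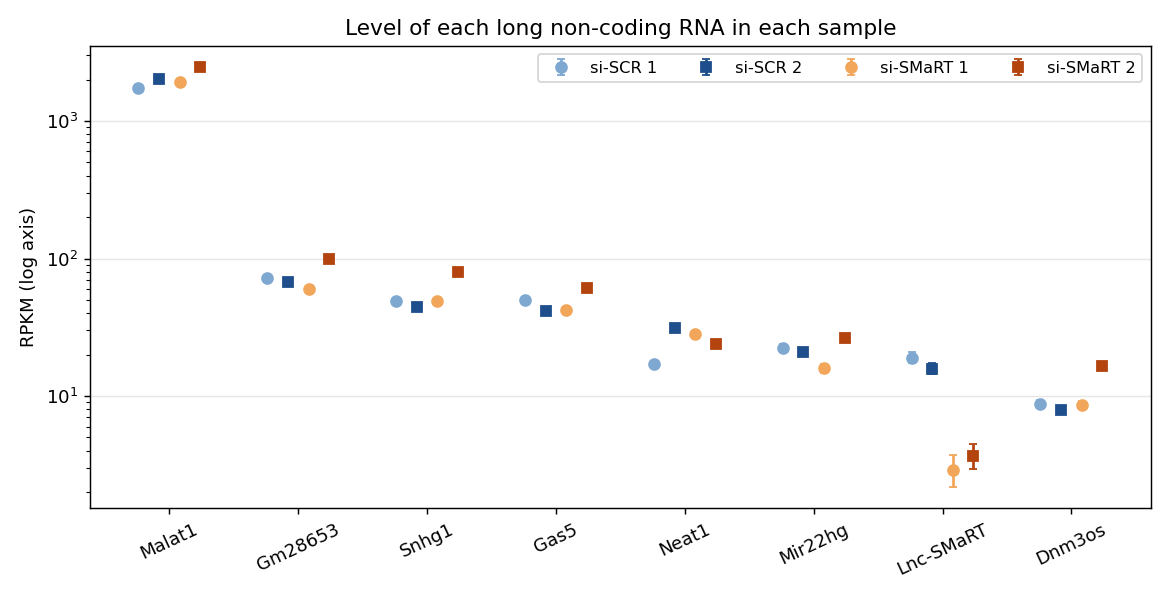
Level of each of the 8 long non-coding RNAs in the 4 RNA-Seq samples, as RPKM on a log axis, ordered by mean si-SCR level. Points are single samples and bars are exact 95% Poisson intervals of the reads behind them, in most cases smaller than the point. Lnc-SMaRT drops from 15.9 RPKM or more to 3.65 RPKM or less, whereas in the other 7 genes the groups overlap.

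The pull-down recovered the same RNA. The deposited list of the lnc-SMaRT pull-down had 345 peaks, and 4 of them overlapped exons of lnc-SMaRT on its strand. Each of the 4 exons lay under its own peak: exon 1 under chrX:12354801-12355000 (the authors' p = 0.00242), exon 2 under chrX:12343201-12343400 and exon 3 under chrX:12342001-12342400 (both listed with a p of 0), and exon 4 under chrX:12339201-12341000 (p = 4.28e-06). All 6 probe sites lay inside these peaks, and exon 2, which holds no probe site, had a peak as well. Another peak lay in the intron between exons 2 and 3 (chrX:12342801-12343000). The last peak lay beyond the annotated 3′ end, with its near edge 982 bases away (chrX:12338401-12338800). The LacZ list held 336 peaks and none on lnc-SMaRT. Neither list had a peak on the other 7 long non-coding RNAs, in exons of either strand or in introns of the same strand. The study's methods describe LacZ peaks called against the input only. The lnc-SMaRT list does not state whether its peaks were called against the input or against LacZ. With 1 library per pull-down, the absence of a peak says only that none was listed.

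**Figure D2:**
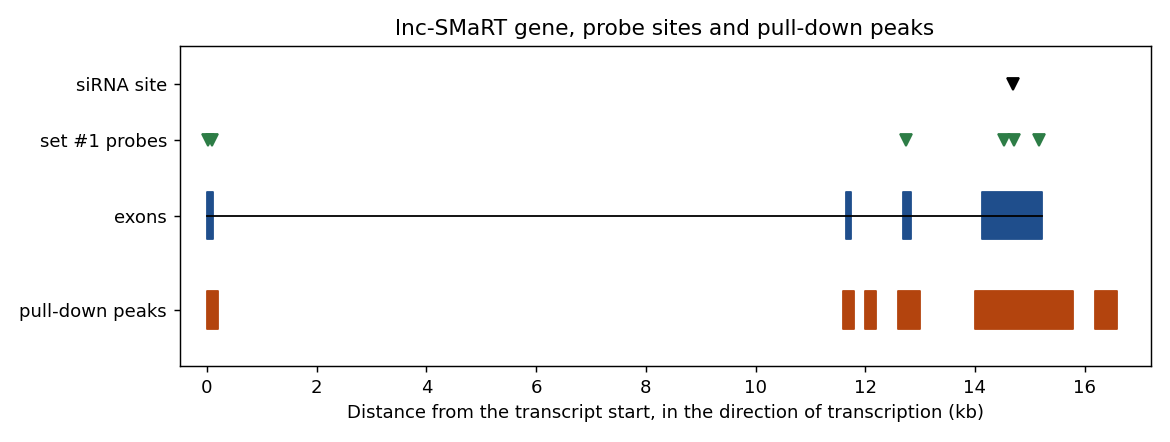
Map of the lnc-SMaRT gene, drawn in the direction of transcription with the distance from the transcript start in kb. Rows show the siRNA site, the 6 set #1 probe sites, the 4 exons (boxes) and the pull-down peaks (boxes). A peak covers every exon, and the list also has a peak in an intron and a peak past the 3′ end.

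The upstream region of lnc-SMaRT is shown because the first-exon peak reaches the start site and because E-boxes (CANNTG) are the sites that MyoD-family factors bind. The window runs from 250 bases before to 50 bases after the RefSeq start (GRCm38.p6, chrX:12354947-12355246, minus strand). For the lincMD1 locus the same window is chr1:20669632-20669931 on the plus strand. In both, CAGCTG and TATAAA are in capitals.
Lnc-SMaRT: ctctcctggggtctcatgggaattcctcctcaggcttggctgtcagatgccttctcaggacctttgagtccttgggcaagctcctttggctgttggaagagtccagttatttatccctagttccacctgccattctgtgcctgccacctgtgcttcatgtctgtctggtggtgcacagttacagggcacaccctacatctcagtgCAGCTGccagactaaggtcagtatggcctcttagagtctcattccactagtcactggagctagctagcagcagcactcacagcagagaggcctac
Lincmd1: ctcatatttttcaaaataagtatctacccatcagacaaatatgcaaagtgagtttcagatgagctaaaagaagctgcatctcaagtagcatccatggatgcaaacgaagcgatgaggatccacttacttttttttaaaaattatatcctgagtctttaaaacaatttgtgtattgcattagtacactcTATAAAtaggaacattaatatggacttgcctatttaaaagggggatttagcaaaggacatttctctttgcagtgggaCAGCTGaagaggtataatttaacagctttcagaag
The lnc-SMaRT window held 4 CANNTG matches, of which 1 was CAGCTG, and the lincMD1 window held 2, of which 1 was CAGCTG, with 1 TATAAA. Both motifs were searched on both strands, and CAGCTG is counted within CANNTG. Of 32544 RefSeq promoter windows of this length, 72.3% held at least 1 CANNTG, 16.4% held CAGCTG, 7.17% held CACGTG and 13.6% held TATAAA. Among the other members, Malat1 had 1 CAGCTG and Snhg1 had 1 TATAAA (on the opposite strand), and no searched window held CACGTG. Neat1 was not searched. A match of letters is a description and not a binding site. The study cites ChIP-seq data in which MyoD and Myog bound the putative lnc-SMaRT promoter region. Its text does not state whether that binding lay within this window.

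The 8 RNAs spanned a wide range of levels. In si-SCR cells the order by mean RPKM was Malat1 (1879.9 ± 191), Gm28653 (69.9 ± 3.29), Snhg1 (47.0 ± 3.48), Gas5 (45.5 ± 6.01), Neat1 (24.2 ± 10.01), Mir22hg (21.6 ± 1.09), lnc-SMaRT (17.5 ± 2.26) and Dnm3os (8.38 ± 0.587), each as mean ± SD over 2 samples. Malat1 alone made up 88.9% of the summed RPKM of the 8. Of the 7 neighbouring pairs in this order, 5 did not overlap between the si-SCR samples. Snhg1 and Gas5 overlapped, as did Neat1 and Mir22hg, so their order is not resolved. For Snhg1 the exons of all annotated isoforms took in the whole gene, 2969 bases, and for Gas5 they took in 3760 bases. The RPKM of their spliced forms may therefore be understated, and their places in this order and in the ranking are rough. Compared with Myod1, the myogenic master regulator, at 54.8 and 70.1 RPKM in si-SCR 1 and 2, Malat1 was 31.8 and 28.7 times as high and Gm28653 was 1.32 and 0.963 times as high. Lnc-SMaRT stood at 0.348 and 0.226 of Myod1 in the same samples. Among 304 rows of long non-coding genes, whose median si-SCR level was 1.31 RPKM, Malat1 ranked 3, Gm28653 ranked 7, Snhg1 ranked 10, Gas5 ranked 11, Neat1 ranked 15, lnc-SMaRT ranked 22 and Dnm3os ranked 38. The Mir22hg row was left out of this ranking because it also holds a protein-coding gene. The joined rows of Snhg3 and Snhg4 are not in this ranking either.

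**Figure D3:**
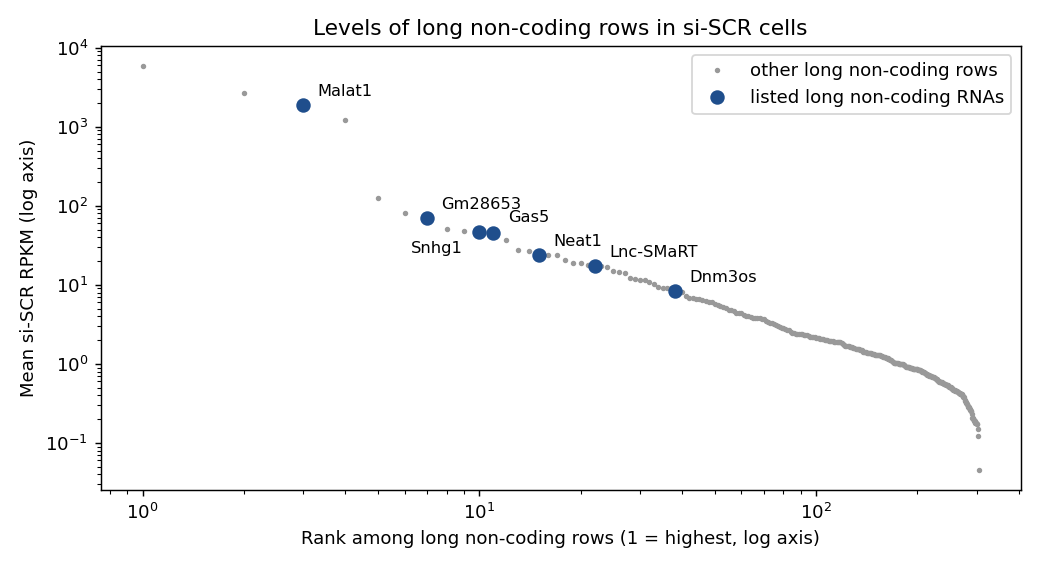
Mean si-SCR RPKM (log axis) of 304 table rows of long non-coding genes against their rank (log axis, 1 is the highest). The labelled points are 7 of the 8 listed RNAs, from Malat1 at rank 3 to Dnm3os at rank 38, and all lie above the median of 1.31 RPKM.

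The nuclear RNAs Malat1 and Neat1 are neighbours on the minus strand of chromosome 19 (chr19:5795690-5802672 and chr19:5824708-5845478). Malat1 is retained in nuclear speckles, and Neat1 is the scaffold of paraspeckles. Malat1 had 1745 RPKM in si-SCR 1, 2015 RPKM in si-SCR 2, 1928 RPKM in si-SMaRT 1 and 2461 RPKM in si-SMaRT 2. The si-SMaRT 2 value was the highest and the other si-SMaRT value lay between those of the si-SCR samples. The log2 difference of the groups was 0.22 (95% interval -0.44 to 0.87, adjusted p = 0.893), so the interval held changes from 0.739-fold to 1.83-fold. Malat1 took between 1.19% and 1.77% of all recovered reads of a sample. Its counting error was therefore small. The interval rests on limma's moderated variance, which draws on all tested rows.

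Neat1 behaved differently. Its level was 17.1 RPKM in si-SCR 1 and 31.3 RPKM in si-SCR 2, and it was 28.2 RPKM in si-SMaRT 1 and 23.8 RPKM in si-SMaRT 2. The lowest and the highest value were thus both controls, and the si-SMaRT samples lay between them. Between the si-SCR samples Neat1 differed 1.83-fold, with at least 4497 and 9178 reads behind the values and Poisson intervals of 16.6 to 17.6 RPKM and 30.6 to 31.9 RPKM. Among 1191 tested rows whose GC content lay within 1 percentage point of that of Neat1 (47.3%), 99.8% had a smaller log2 ratio of si-SCR 2 to si-SCR 1. The log2 difference between the groups was 0.16 (95% interval -0.48 to 0.80, adjusted p = 0.924), and it was -0.27 when si-SCR 1 was left out. The row length of 20771 bases is that of the long isoform, and the short isoform shares its 5′ part, so the isoforms cannot be told apart in this value. Relative to Malat1, Neat1 stood at 0.980% and 1.55% in the si-SCR samples and at 1.46% and 0.965% in the si-SMaRT samples.

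Genes for paraspeckle proteins gave no call: of 12 tested, 0 passed in either direction, with a median log2 difference of 0.12 beside 0.02 over all tested rows. An unadjusted p below 0.05 was found for 1 of these genes, and for 1008 (9.09%) of all tested rows. The most abundant were Hnrnpk, with 135 and 129 RPKM in si-SCR and 116 and 168 RPKM in si-SMaRT, and Nono, with 81.8 and 72.0 RPKM in si-SCR and 72.6 and 80.9 RPKM in si-SMaRT. In both the groups overlapped. Of the 10 tested nuclear and chromatin long non-coding RNAs 0 passed, with a median of 0.19, and 2 had an unadjusted p below 0.05. After Malat1 the most abundant of them over the 4 samples was Xist, which coats the inactive X chromosome. It had 24.1 and 23.5 RPKM in si-SCR and 31.9 and 42.0 RPKM in si-SMaRT, with no overlap (log2 difference 0.62, SE 0.27, adjusted p = 0.480).

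Gas5 and Snhg1 are hosts of box C/D snoRNAs, which lie in their introns and guide the methylation of ribosomal RNA, while the spliced host transcripts are decayed during translation. Gas5 lies on chromosome 1 (chr1:161034422-161038539, plus strand) and Snhg1 on chromosome 19 (chr19:8723475-8726443, plus strand). Their rows join 10 and 9 gene names, since the intronic small RNA genes were joined with the host, and the host cannot be separated from them. Gas5 had 49.7 and 41.2 RPKM in si-SCR 1 and 2 and 42.2 and 61.0 RPKM in si-SMaRT 1 and 2. Snhg1 had 49.5 and 44.6 RPKM in si-SCR 1 and 2 and 49.1 and 79.6 RPKM in si-SMaRT 1 and 2. In each gene si-SMaRT 2 was the highest sample, and si-SMaRT 1 lay within the range of the controls.

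The log2 difference was 0.16 for Gas5 (95% interval -0.42 to 0.75, adjusted p = 0.912) and 0.41 for Snhg1 (95% interval -0.19 to 1.01, adjusted p = 0.733). For Snhg1 the interval allowed a change up to 2.02-fold. Its result rested on si-SMaRT 1: without that sample the log2 difference was 0.76 with an adjusted p of 0.00224, in a fit where 2908 of 11086 rows (26.2%) passed and the remaining si-SMaRT sample was assumed to vary like the si-SCR samples. Without si-SMaRT 2, the Gas5 difference was -0.10. Both RNAs are AT-rich, with a GC content of 43.6% and 40.7%, and tested rows of like GC content had median log2 differences between si-SMaRT 2 and si-SMaRT 1 of 0.41 and 0.60, beside 0.53 for Gas5 and 0.70 for Snhg1.

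Of 21 listed snoRNA host genes 9 were tested, and all 9 had a log2 difference above 0, beside 5795 of 11086 tested rows. Their median was 0.12, but 0 passed and 0 had an unadjusted p below 0.05. The most abundant was Snhg3, with 73.9 and 58.7 RPKM in si-SCR and 56.2 and 97.0 RPKM in si-SMaRT. Its row joins 3 gene names, so this value cannot be assigned to Snhg3 alone. In 8 of the 9, si-SMaRT 2 was higher than si-SMaRT 1, and in none did the groups separate. With the GC trend removed the median was 0.04. Snhg4 (-0.04), Snhg6 (-0.03), Snhg5 (-0.01) and Snhg18 (-0.01) then lay below 0, and the others stayed above 0. Host genes of this class often carry a 5′ terminal oligopyrimidine tract, as do mRNAs of the translation machinery. Of 17 tested mRNAs of that class outside the ribosome, 0 passed and 1 had an unadjusted p below 0.05, with a median of -0.02. Their most abundant members were Eef1a1, with 4106 and 3773 RPKM in si-SCR and 3713 and 4079 RPKM in si-SMaRT, and Eef2, with 1021 and 1198 RPKM in si-SCR and 1336 and 731 RPKM in si-SMaRT. Of 14 tested factors of nonsense-mediated decay, the pathway that removes Gas5, 0 passed and 0 had an unadjusted p below 0.05, with a median of 0.16. With the GC trend removed 1 of them passed, Upf1, the central helicase of the pathway, with a log2 difference of 0.69 (adjusted p = 0.0412). It is named for that call and had 7.05 and 8.31 RPKM in si-SCR and 15.6 and 7.81 RPKM in si-SMaRT, with overlap. Magoh (90.4 and 74.1 RPKM in si-SCR, 67.3 and 104.8 RPKM in si-SMaRT) and Eif4a3 (59.9 and 67.6 RPKM in si-SCR, 78.6 and 57.0 RPKM in si-SMaRT), parts of the exon junction complex, were the most abundant.

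Gm28653, Mir22hg and Dnm3os are hosts of miRNAs. Gm28653 is the annotated gene at the lincMD1 locus (chr1:20669882-20684298, plus strand) and contains miR-206 and miR-133b, which are enriched in muscle. Mir22hg (chr11:75461539-75466676, plus strand) carries miR-22 and overlaps the coding gene Tlcd2 on the same strand. Dnm3os (chr1:162217623-162225550, plus strand) carries miR-199a-2 and miR-214 and lies antisense inside the dynamin gene Dnm3. Main-arm mature sequences of the hosted miRNAs, from the RefSeq annotation of GRCm38.p6, are shown with the seed (bases 2 to 8) in capitals, because they are what these hosts deliver.
miR-206-3p (chr1:20679055-20679076): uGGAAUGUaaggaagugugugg
miR-133b-3p (chr1:20682834-20682855): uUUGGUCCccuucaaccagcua
miR-22-3p (chr11:75463772-75463793): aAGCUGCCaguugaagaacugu
miR-199a-5p (chr1:162217844-162217866): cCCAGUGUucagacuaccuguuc
miR-199a-3p (chr1:162217883-162217904): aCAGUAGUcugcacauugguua
miR-214-3p (chr1:162223438-162223459): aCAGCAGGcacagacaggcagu
The 10 mature arms of the 5 hosted genes had 10 different seeds, so no seed was shared between hosts. Mature miRNAs were not measured in these libraries, and the host levels below say nothing of their amounts.

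Gm28653 had 72.2 RPKM in si-SCR 1, 67.6 RPKM in si-SCR 2, 60.05 RPKM in si-SMaRT 1 and 99.8 RPKM in si-SMaRT 2. The si-SMaRT samples thus held both the lowest and the highest value. The log2 difference was 0.15 (95% interval -0.46 to 0.76, adjusted p = 0.927). It turned to -0.22 without si-SMaRT 2 and to -0.01 once the GC trend was removed. The row joins Gm28653 with the gene for miR-206, so reads of the precursor and of the host are counted together. With a GC content of 41.2%, its log2 difference between si-SMaRT 2 and si-SMaRT 1 was 0.73, beside a median of 0.57 over 764 rows of like GC content.

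Mir22hg had 22.3 and 20.8 RPKM in si-SCR 1 and 2 and 15.9 and 26.5 RPKM in si-SMaRT 1 and 2. Again the lowest and the highest sample were both si-SMaRT. The log2 difference was -0.07 (95% interval -0.68 to 0.54, adjusted p = 0.969), and it was 0.30 without si-SMaRT 1. The row holds the coding gene Tlcd2 and miR-22 as well, so this value cannot be assigned to Mir22hg alone. The GC content of 48.1% was the highest of the 8, and its log2 difference between the si-SMaRT samples, 0.73, was above that of 98.2% of 1170 rows of like GC content, whose median was 0.05.

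Dnm3os had 8.79 RPKM in si-SCR 1, 7.96 RPKM in si-SCR 2, 8.61 RPKM in si-SMaRT 1 and 16.5 RPKM in si-SMaRT 2. A single sample, si-SMaRT 2, stood about 1.91 times above its replicate, and si-SMaRT 1 lay within the controls. The log2 difference was 0.50 (95% interval -0.15 to 1.16, adjusted p = 0.679), which allows a change of up to 2.23-fold. Without si-SMaRT 1 it was 0.97 with an adjusted p of 9.06e-05, in the same fit as above that called 26.2% of rows. Dnm3os had the lowest GC content of the 8, 37.0%, and 174 rows of like GC content had a median log2 difference between the si-SMaRT samples of 0.84, beside 0.93 for Dnm3os. Dnm3, on the opposite strand, was listed at 0.262 and 0.258 RPKM in si-SCR and 0.286 and 0.294 RPKM in si-SMaRT, below the filter for testing. The study's methods name a stranded library kit and an alignment that used the strand. Whether the read counting used it is not stated, so reads from the antisense pair may not be separated.

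Of the 7 tested miRNA host genes, 0 passed and 0 had an unadjusted p below 0.05, with a median log2 difference of 0.18. With the GC trend removed the median was 0.00055, over the 6 with a known GC content. The most abundant was H19, which carries miR-675, with 6058 and 5651 RPKM in si-SCR and 4757 and 3310 RPKM in si-SMaRT. Its groups did not overlap and its log2 difference was -0.56 (SE 0.34, adjusted p = 0.661). Of the 7 tested muscle long non-coding RNAs, with H19 and Malat1 as the most abundant, lnc-SMaRT alone passed, and the median was 0.15. That median turned to -0.01 with the GC trend removed.

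**Figure D4:**
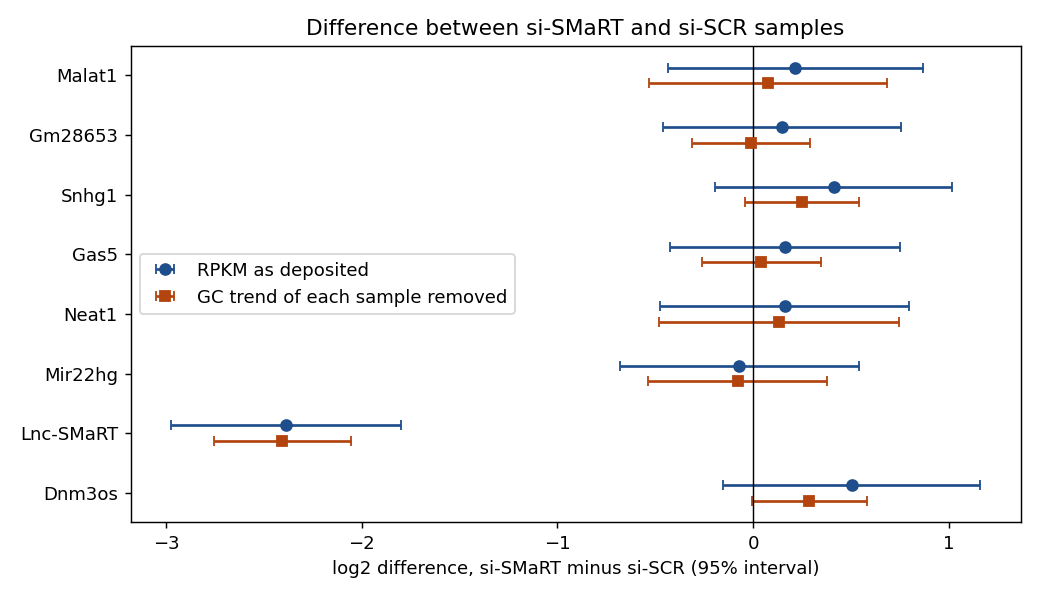
Log2 difference between si-SMaRT and si-SCR for each of the 8 long non-coding RNAs with its 95% interval, from RPKM as deposited (circles) and after the GC trend of each sample was removed (squares). The interval of lnc-SMaRT lies below 0 in both, and those of the other 7 include 0 in both.

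The 7 long non-coding RNAs other than lnc-SMaRT had adjusted p-values between 0.679 and 0.969. Of these, 6 had a log2 difference above 0, with a median of 0.16 over the 7 beside 0.02 over all tested rows. Their standard errors were between 0.28 and 0.31, and a p that misses the threshold does not show that the levels were equal. In 6 of the 8 genes si-SMaRT 2 was the highest sample, the exceptions being lnc-SMaRT and Neat1. The spread between the si-SMaRT samples moved with base composition over all tested rows, and less closely over the 8 members. Spearman's rho with GC content was -0.84 over all tested rows, -0.57 over long non-coding rows and -0.43 over the 8. After the GC trend was removed, the log2 difference between the si-SMaRT samples was 0.05 for Snhg1, 0.07 for Gas5, 0.12 for Gm28653 and 0.04 for Dnm3os. It remained 0.65 for Mir22hg, was -0.18 for Malat1 and was -0.42 for Neat1. In that fit the group difference of lnc-SMaRT was -2.41 (adjusted p = 0.0013), and that of the other 7 had adjusted p-values from 0.216 for Dnm3os (log2 difference 0.29, 95% interval -0.01 to 0.58) to 0.974 for Gm28653.

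**Figure D5:**
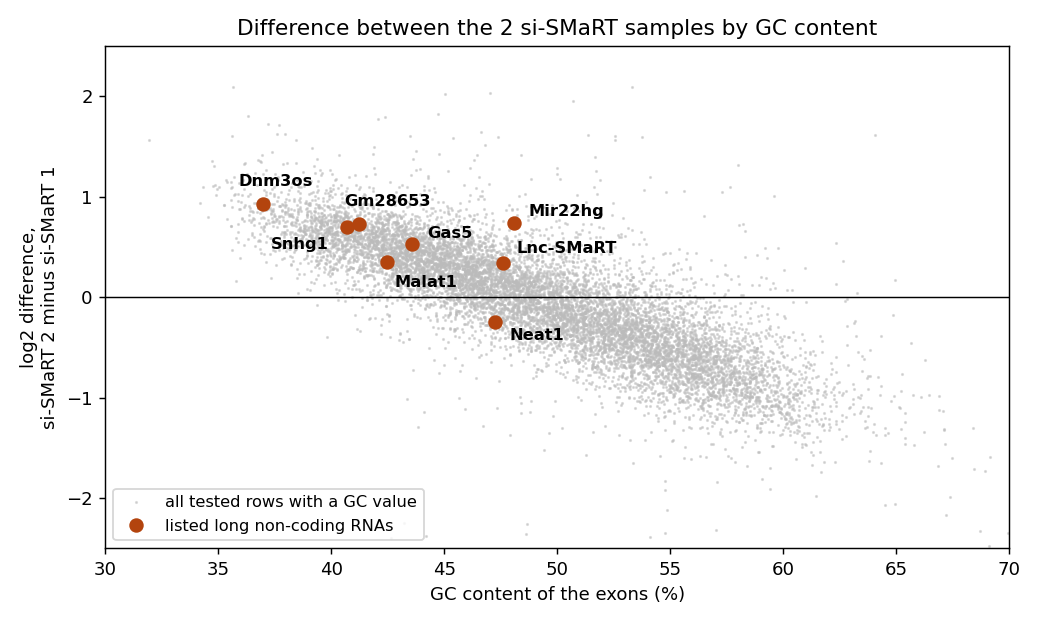
Log2 difference between the 2 si-SMaRT samples (si-SMaRT 2 minus si-SMaRT 1) against the GC content of the exons, for tested rows with a GC value within the plotted range (grey) and the 8 long non-coding RNAs (labelled). Rows with low GC content sit above 0, and 7 of the 8 are above 0, from lnc-SMaRT at 0.33 to Dnm3os at 0.93, with Neat1 at -0.25.

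The protein-coding genes next to the 8 loci were also read out. Of 17 neighbours that overlap a member or are nearest on either side, 13 had a row of their own, 12 were tested and 0 passed (1 had an unadjusted p below 0.05, and voom on the recovered reads called 0), with log2 differences from -0.86 to 0.49. On the X chromosome, Bcor, a transcriptional corepressor that lies 179427 bases downstream of lnc-SMaRT, had 4.26 and 6.03 RPKM in si-SCR and 7.72 and 6.67 RPKM in si-SMaRT (log2 difference 0.49, adjusted p = 0.651). On the other side Atp6ap2, an accessory subunit of the vacuolar proton pump, had 83.1 and 81.4 RPKM in si-SCR and 67.8 and 97.7 RPKM in si-SMaRT (log2 difference -0.02, adjusted p = 0.991). Pkhd1, next to Gm28653 and on the opposite strand, had 6.51 and 6.64 RPKM in si-SCR and 3.71 and 3.44 RPKM in si-SMaRT, with no overlap and a log2 difference of -0.86 (adjusted p = 0.250). Slc3a2, an amino acid transporter chain whose gene starts 106 bases from Snhg1 in the opposite direction, had 32.5 and 38.9 RPKM in si-SCR and 40.7 and 33.6 RPKM in si-SMaRT. Frmd8, next to Neat1, had a log2 difference of 0.03. Near Gas5, Zbtb37 had 0.27, and near Mir22hg, Wdr81 had 0.34 and Prpf8 had 0.25. Wdr74, downstream of Snhg1, had -0.24, and Mettl13, beyond Dnm3os, had 0.10.

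The tested genes whose values over the 4 samples were most like each member, by root mean square distance of centred log2 values, were the following, as a description only. For lnc-SMaRT they were Ctsw (distance 0.14) and Ctsc (0.30), cathepsin genes at low levels: Ctsw had 4.30 and 3.22 RPKM in si-SCR and 0.647 and 0.907 RPKM in si-SMaRT. For Malat1 they were Mir181a-1 (0.0022) and Clasp2 (0.0069), and for Neat1 they were Sec22c (0.029) and Traf3ip2 (0.042). For Gm28653 they were Bmpr1a (0.011) and Hsf2 (0.015), for Mir22hg Rnf170 (0.017) and Wsb1 (0.017), and for Dnm3os Zfp958 (0.017) was among them. For Gas5 they were Zfp37 (0.011) and 2010012O05Rik (0.016), and for Snhg1 Tdp2 (0.021) and Cenpe (0.026). With 4 samples, such likeness covers few independent values.

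The state of the cells is given beside these levels, since several members are known to change as myoblasts differentiate. Of 12 tested markers of differentiated muscle, 11 had a log2 difference below 0 and 0 passed, with a median of -0.61, and 7 had an unadjusted p below 0.05. With the GC trend removed 4 of the 12 passed, all lower in si-SMaRT, at log2 differences of -1.13 for Ckm (adjusted p = 0.0299), -1.12 for Tnnc2 (0.0461), -1.004 for Dmd (0.0329) and -0.95 for Mef2c (0.0340). With voom on the recovered reads, where 0.939% of rows passed, 2 of these markers passed, whereas each list above with 0 calls had 0 calls with voom too. In the fit on RPKM as deposited, Tnnc2 had 1235 and 853 RPKM in si-SMaRT 1 and 2, beside the si-SCR values given above, a log2 difference of -1.25 (adjusted p = 0.0994). Tnnt3, another fast troponin gene, had 1881 and 1518 RPKM in si-SCR and 767 and 882 RPKM in si-SMaRT (log2 difference -1.04, adjusted p = 0.171). By qPCR with this siRNA and another, the study reported lower Mef2c, Ckm, Dmd and Tnnc2, while MyoD and Myog were not affected. Of 12 tested markers of undifferentiated myoblasts 1 passed: Id3, an inhibitor of myogenic bHLH factors, had 2.91 and 3.20 RPKM in si-SCR and 12.3 and 7.26 RPKM in si-SMaRT, a log2 difference of 1.60 (SE 0.30, adjusted p = 0.0232). The median of that list was 0.20, with 7 of its genes above 0 and 5 below. Among those below, Id2 had a log2 difference of -0.58 (adjusted p = 0.579) and Id1 of -0.01. The most abundant genes of the list over the 4 samples were Top2a (52.2 and 42.2 RPKM in si-SCR, 44.6 and 70.2 RPKM in si-SMaRT) and Cdk1 (27.5 and 22.7 RPKM in si-SCR, 27.0 and 33.3 RPKM in si-SMaRT). The part of differentiation state in the levels of the 8 RNAs was not tested.

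Targets of p53, a pathway to which the host genes of miR-22 and of several snoRNAs have been tied, gave no call. Of 15 tested, 0 passed and 1 had an unadjusted p below 0.05, with a median log2 difference of 0.12. Cdkn1a, the cell cycle inhibitor p21, had 321 and 378 RPKM in si-SCR and 353 and 245 RPKM in si-SMaRT, and Ccng1 had 307 and 246 RPKM in si-SCR and 226 and 394 RPKM in si-SMaRT. In both genes the groups overlapped. The pair of tested markers of other cell types, Pparg and Cd68, also gave 0 calls, with a median of -0.02 and 0 with an unadjusted p below 0.05. With the GC trend removed that median was 0.01.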

How the data were processed

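Total RNA-Seq (4 samples) and pull-down libraries (3) of C2C12 cells were used. Per the study's methods and the submitters' processing notes, reads were trimmed (Trimmomatic), cleared of rRNA and tRNA (Bowtie2), aligned to GRCm38 with the Ensembl 77 annotation (TopHat2) and counted with htseq-count, intersection-strict. The authors deposited RPKM made with edgeR after TMM scaling and a filter on low CPM. The authors' p-value of each peak was made with Piranha in bins of 200 bases.

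The groups were compared on log2(RPKM + 0.1) with limma 3.58.1 (R 4.3.3), using a trended prior variance. Rows needed a mean of 0.5 RPKM or more, and p-values were adjusted by Benjamini-Hochberg with a threshold of 0.05. The added 0.1 understates log2 differences of low genes. Because the deposited unit is RPKM, a count test was not the main test, and voom on the recovered reads was run as an alternative. Reads behind the values were recovered from the step between RPKM values (6456 rows by gene model, 5179 rows as a lower limit, 7 not), with a tolerance of 0.001. The GC content and gene models came from GENCODE M21 on GRCm38. Long non-coding rows were those with a GENCODE long non-coding biotype and no coding gene or pseudogene. Alternatives were other pseudocounts (1, 0.01) and filters (none, 5 RPKM), quantile normalization, no variance trend, a replicate block, each sample left out, removal of the GC trend (loess span 0.3), voom, and other rules for peaks. A crossed block was added after the data were seen.

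The members and gene lists were chosen with earlier results of these data known. Named genes were the 8 members, called or the 2 most abundant genes of each list (mean over the 4 samples), neighbouring coding genes, the 2 nearest profiles and Myod1. Snhg4, Snhg5, Snhg6, Snhg18, Id1 and Id2 were named for their direction after their values were seen. Results that need withheld items are not reported here. Python 3.11.15, pandas 2.3.3, scipy 1.17.1, pysam 0.24.0 and matplotlib 3.10.9 were used.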

Additional observations from a re-analysis of the deposited data

How the results depend on the processing

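Lnc-SMaRT stayed past the threshold under all 16 alternatives, with log2 differences from -2.55 to -2.22 when a sample was left out and from -2.42 to -2.11 otherwise (adjusted p up to 0.0176). Malat1 kept its direction and passed under none of its alternatives. When a sample was left out, the others ranged from 0.063 to 0.76 for Snhg1, from 0.041 to 0.97 for Dnm3os, from -0.22 to 0.51 for Gm28653, from -0.10 to 0.43 for Gas5, from -0.27 to 0.59 for Neat1 and from -0.44 to 0.30 for Mir22hg. Snhg1 (0.76) and Dnm3os (0.97) passed without si-SMaRT 1 only. Removal of the GC trend, alone, with the replicate block and with a crossed block, turned Gm28653 to -0.0090.

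The 56 rows past the threshold became 37 with quantile normalization, 104 with voom, 477 with the GC trend removed and 24 to 2908 when a sample was left out (24 without si-SCR 1, 30 without si-SCR 2, 2908 without si-SMaRT 1, 941 without si-SMaRT 2). Of the list genes, 2 passed, against 7 with the GC trend removed (4 of them differentiated muscle markers), 4 with voom and 1 to 31 when a sample was left out. Same-numbered samples did not deviate together (Pearson's r -0.36 across 11086 rows, over 2 pairs). With the GC trend removed, r was -0.19 across 10943 rows. With 2 pairs this check cannot decide whether the samples were paired, and the main fit did not take the numbers as pairs. With the replicate block 96 rows passed, and 112 with the GC trend also removed; no member's call changed. A crossed pairing, added after the data were seen, called 487 rows and 6 list genes, and 1548 and 20 with the GC trend removed. The cause of these changes was not tested. Depth limits lnc-SMaRT most, with 59 reads in si-SMaRT 1.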

Other observations

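Beyond the RNAs described above, Tug1, a nuclear long non-coding RNA picked here after its values were seen, had groups that did not overlap, as did 40.7% of all tested rows. Tug1 had 16.6 and 17.7 RPKM in si-SCR and 21.9 and 33.6 RPKM in si-SMaRT (log2 difference 0.66, SE 0.28, adjusted p = 0.470). It did not pass the threshold with the GC trend removed (adjusted p = 0.0744). Over 256 tested rows of long non-coding genes, 69.5% were higher in si-SMaRT 2 than in si-SMaRT 1, beside 49.6% of all tested rows.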
